A study of Peromyscus maniculatus with 16 samples.

Results

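The livers of 2 stocks of the deer mouse (Peromyscus maniculatus) were compared by RNA sequencing, 3 animals of the SM2 stock against 13 of the BW stock, of 16 animals in all. Membership was taken from the stock given in the sample labels. The authors' methods name only the BW stock. BW, of the subspecies P. m. bairdii, has 40 founders, from the Ann Arbor area of Michigan, and no outside animals have been added since 1948. SM2, of the subspecies P. m. sonoriensis, was founded from about 50 animals trapped in 1995 close to the White Mountain Research Station in California. Both are outbred, so each animal carries its own combination of alleles. Animals were fed regular chow or a fat-rich diet (HFD), described as 58 kcal% fat and sucrose, for 28 weeks from 3 to 4 months of age. They were 10 months old at the end. The controls on chow (C) were 1 SM2 animal (10876) and 5 BW animals. The animals on HFD without steatosis (NS) were 1 SM2 animal (10865) and 4 BW animals, and those on HFD with steatosis (S), which is fat stored in the liver, were 1 SM2 animal (10880) and 4 BW animals. All 3 SM2 animals and 10 of the BW animals were male, and the 3 BW females were all in S. With 1 SM2 animal per diet group, a difference between SM2 animals cannot be told apart from an effect of diet or steatosis within SM2.

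The liver sets blood glucose and lipids, makes most plasma proteins, and clears foreign compounds through families of enzymes such as the cytochromes P450 and the glutathione S-transferases. Genes of these families are often duplicated and differ in sequence and expression between related rodents. Deer mice live from lowland to high mountains, and the mountain populations are known for their handling of low oxygen, in which hypoxia-inducible factor (HIF), heme synthesis and the use of fatty acids as fuel take part.

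Total counts were 7516489 to 10835244 in SM2 and 4640733 to 11349971 in BW, and 12545 to 12595 genes had at least 1 count in SM2 against 11763 to 12868 in BW. Neither difference passed an exact permutation test within diet groups (two-sided p = 0.647 for the total and 0.24 for the genes). In a map of the 16 livers by their 500 most different genes per pair, the SM2 animals lay at -2.25 to -1.78 on the first dimension and the BW animals at -0.07 to 0.66. The BW animal 36016 (S) stood apart on the second dimension, at 3.09 against at most 0.53 in the other animals. The difference between 2 livers, as the root mean square of log2 differences over genes, had a median of 1.00 for an SM2 and a BW animal in the same diet group. It was 0.707 for a pair of BW animals in the same diet group, and 0.762 to 0.929 for the 3 SM2 pairs, which all cross diet groups. BW pairs that crossed diet groups had a median of 0.777. Both stocks were aligned to an assembly of P. m. bairdii, the subspecies of BW. Alignment rates were not analysed here, and the part of this choice in the results was not tested.

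**Figure D1:**
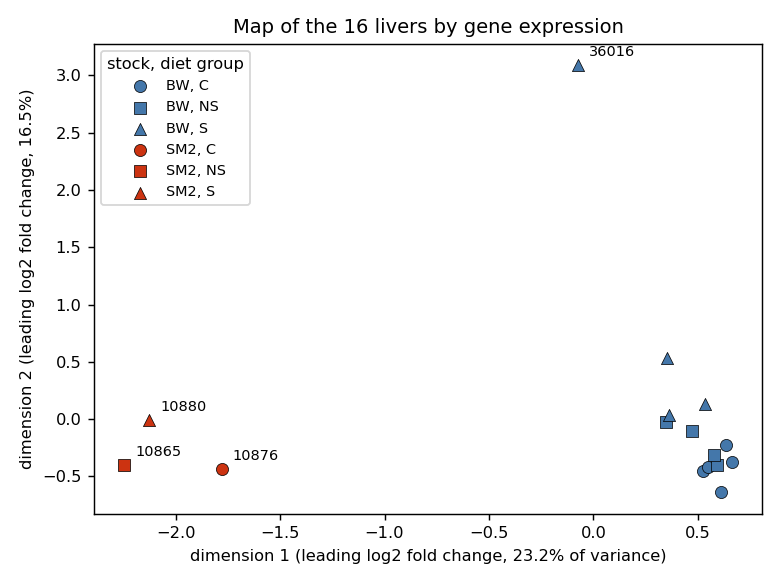
Map of the 16 livers by multidimensional scaling of log2 expression; both axes are leading log2 fold changes, colours mark the stock and symbols the diet group. The 3 SM2 animals lie at -2.25 to -1.78 on dimension 1, apart from the 13 BW animals at -0.07 to 0.66, and BW animal 36016 lies at 3.09 on dimension 2.

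Between the stocks, 1370 of 12639 genes tested (10.8%) differed, 747 higher in SM2 (5.91%) and 623 lower (4.93%). A gene was called at an adjusted p-value under 0.1 (edgeR quasi-likelihood test, diet group as a block, Benjamini-Hochberg adjustment) and at least 2-fold. Without the fold limit, 2752 genes passed. A gene was tested if it reached 0.5 CPM in at least 1 animal, which a gene high in a single animal meets. With at least 1 CPM in at least 3 animals, 546 genes were higher and 570 lower. DESeq2 gave 654 and 665, so the excess of higher genes depends on the filter and the method. In the same fit, S against C gave 659 calls and NS against C gave 29. This fit had no term for sex, and the 3 females were all in S, so the S calls mix sex with diet and steatosis. The counts of stock calls changed when 1 SM2 animal was left out, which also makes that group smaller and leaves a diet group without SM2. They were 510 higher and 356 lower without 10865, 569 higher and 402 lower without 10880, and 746 higher and 710 lower without 10876. In every fit that left out 1 of the 16 animals, 533 genes kept their call, 302 higher and 231 lower. In male animals alone, 752 genes were higher and 679 lower. The only BW male in S was 36016, the animal that stood apart on the map.

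Over all genes tested, 861 (6.81%) had their 3 SM2 animals outside the range of the 13 BW animals, 477 above (3.77%) and 384 below (3.04%). Of the called genes, 543 did so, and in another 538 exactly 2 SM2 animals lay outside that range. The direction was the same in C, NS and S for 1255 called genes, 636 of the 747 higher and 619 of the 623 lower. The calls rest on these same 3 SM2 animals, so this agreement is not separate support. The median log2 difference over all genes tested was -0.04.

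The called genes fell into 3 kinds. In 19 genes 1 stock was near-absent, meaning 3 counts or fewer in each of its animals while each animal of the other stock had 10 counts or more. In 530 genes the difference was graded, with 10 counts or more in all 16 animals, and 229 of these were higher and 301 lower in SM2. The other 821 genes were mixed, 504 higher and 317 lower, and in 440 of them the lower stock averaged under 0.5 CPM (the count scaled by TMM to a common library size). The graded differences were 2- to 4-fold in 471 genes, 4- to 8-fold in 52 and 8- to 16-fold in 7, and no graded gene differed by more. A stock had 0 counts in every animal in 69 called genes, 23 higher and 46 lower in SM2. For these the fitted fold change has no meaning, and for 5 of the lower genes the counts allow less than a 2-fold difference. Calls were most frequent at low levels, at 17.4% of the genes with a mean of 1 to 10 CPM against 5.40% at 100 CPM or more.

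**Figure D2:**
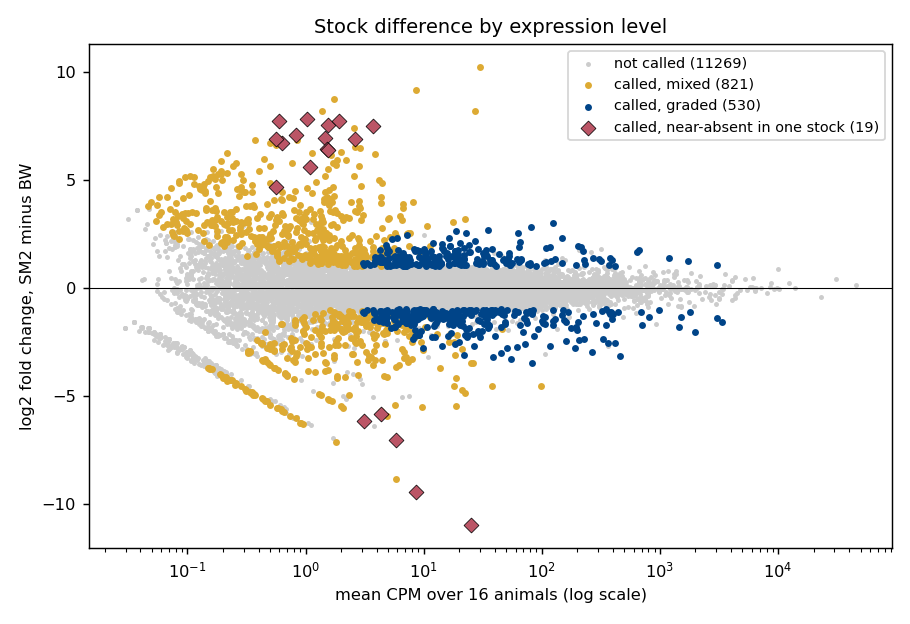
Log2 fold change of SM2 over BW (y axis) against the mean CPM over the 16 animals (x axis, log scale), 1 point per gene tested. The 530 graded genes (blue) lie to the right and at most 3.51 log2 units from 0, the 19 near-absent genes (red diamonds) lie further from 0 at lower levels, and the 821 mixed genes (yellow) fill the low levels.

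Near-absent in SM2 were 5 genes. Both genes with 0 counts in all 3 SM2 animals encode serine proteases. Prss41 had 60 to 472 counts in BW, so SM2 was at least 269.8-fold lower, with the floor set at 3 counts over the 3 animals together. Prss16, a protease best known from the thymus, had 50 to 166 counts in BW and was at least 93.7-fold lower by the same floor. Tpd52l1, of the tumor protein D52 family, had 0, 1 and 0 counts in SM2 in the order 10876 (C), 10865 (NS) and 10880 (S), which is kept for all SM2 values from here on. Its BW counts were 21 to 97, a ratio of 183-fold (95% exact counting interval 32.7 to 7236). Trim31, a ubiquitin ligase, had 1, 1 and 0 counts against 12 to 125. Cetn4, a centrin of the centriole, had 0, 1 and 0 counts against 11 to 56. Counting intervals cover counting error only, not the spread between animals.

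Near-absent in BW were 14 genes, Scd3, Kcnd3, Ptprt, Erp27, Hsd17b3, E230025N22Rik, Fsd1, Dydc2, Gabra4, Opn4, Prx, Mybpc3, Glod5 and Myo5c. Several are known from tissues other than liver. Opn4, the light-sensing melanopsin, had 0 counts in all 13 BW animals and 41, 15 and 29 counts in SM2, at least 115-fold higher. Kcnd3, a voltage-gated potassium channel subunit, had 61, 72 and 74 counts in SM2 and 0 to 2 in BW, with 11 BW animals at 0. The 3 SM2 animals were close together here, at 6.00, 9.08 and 9.02 CPM. Fsd1 was as even, at 45, 47 and 46 counts against 0 to 3, a ratio of 50.7-fold (95% exact counting interval 27.5 to 104). Erp27, a protein of the endoplasmic reticulum, had 63, 73 and 59 counts against 0 to 2. Ptprt, a receptor tyrosine phosphatase, had 64, 15 and 68 counts against 0 to 1.

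Other genes of this kind were uneven among the SM2 animals, although each of the 3 stood above all BW animals. Scd3, a stearoyl-CoA desaturase that makes monounsaturated fatty acids, had 13, 184 and 282 counts in SM2, so both animals on HFD exceeded the control. In BW it had 0 to 3 counts, a ratio of 242-fold (95% exact counting interval 122 to 564). Hsd17b3, which forms testosterone from androstenedione, ran the other way, at 323, 57 and 15 counts against 0 to 2 in BW, among them 10 males. Glod5 (200, 22 and 10 counts), Dydc2 (170, 14 and 45 counts) and E230025N22Rik (209, 47 and 33 counts) were likewise highest in 10876. Gabra4, a subunit of the receptor for GABA, had 38, 20 and 56 counts. Prx, the periaxin of peripheral myelin, had 22 to 35 counts in SM2, and Mybpc3, a myosin-binding protein of heart muscle, had 10 to 29 against 0 to 3 in BW. Myo5c, an unconventional myosin, had 16, 46 and 13 counts in SM2, and 12 of the 13 BW animals had 0 counts.

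**Figure D3:**
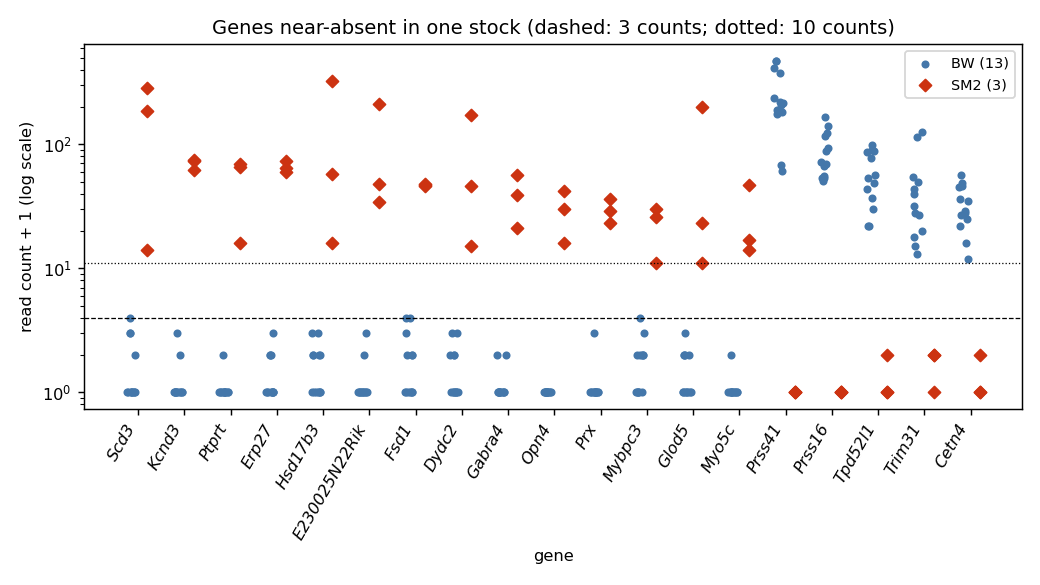
Read counts plus 1 (log scale) of the 19 near-absent genes, 1 point per animal, BW in blue and SM2 as red diamonds; the dashed line marks 3 counts and the dotted line 10 counts. For the 14 genes on the left all BW animals lie at 3 counts or fewer, and for Prss41, Prss16, Tpd52l1, Trim31 and Cetn4 on the right all SM2 animals lie at 1 count or 0.

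The graded genes most clearly higher in SM2 included enzymes that handle foreign compounds. Gstm4, a mu-class glutathione S-transferase, was at 253, 188 and 136 CPM in SM2 and at 24.2 to 44 CPM (median 34) in BW. Its log2 difference was 2.53 ± 0.12 (standard error) with an edgeR adjusted p of 9.7e-10, and every SM2 animal lay at least 3-fold above every BW animal. Fmo4, a flavin-containing monooxygenase, was at 351, 347 and 511 CPM against 23.5 to 122 CPM (median 50.6). As3mt, which methylates arsenic, was at 565, 502 and 442 CPM against 81.6 to 189.6 CPM (median 168). For neither gene did the stocks overlap.

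Fxyd1 (phospholemman), a regulator of the sodium pump, was at 316, 244 and 245 CPM in SM2 against 26.6 to 67.8 CPM (median 35.2) in BW, a log2 difference of 2.81 ± 0.18 (edgeR adjusted p = 2.36e-08). Aifm2, which regenerates coenzyme Q and protects membranes from lipid peroxidation, was at 74.1, 78.4 and 53.5 CPM against 6.57 to 33.5 CPM (median 10.6). Haao and Prodh2 break down amino acids, Haao in the kynurenine branch that leads from tryptophan to NAD and Prodh2 as a hydroxyproline dehydrogenase. Haao was at 1274, 2089.8 and 935 CPM against 297 to 649 CPM (median 467), and Prodh2 at 511, 369.6 and 272 CPM against 23.8 to 151 CPM (median 116). No SM2 animal overlapped BW in these genes, nor in Fam20a (log2 difference 1.75 ± 0.13), Rogdi (2.00 ± 0.18) and Pan2 (1.47 ± 0.13), the last a subunit of a poly(A) deadenylase.

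The graded genes of smallest p among those lower in SM2 follow. Pmf1, a kinetochore protein, was at 2.66, 3.15 and 3.29 CPM in SM2 against 18.6 to 36.5 CPM (median 26.1) in BW, a log2 difference of -3.10 ± 0.22 (edgeR adjusted p = 1.33e-07). Haus1, of the augmin complex that branches spindle microtubules, was at 4.53, 8.19 and 7.31 CPM against 37.2 to 92.9 CPM (median 67.8), or -3.30 ± 0.28 on the log2 scale. Rcn2, a calcium-binding protein of the endoplasmic reticulum, was very even within SM2, at 6.89, 6.30 and 7.19 CPM against 24.7 to 39.3 CPM (median 30.5). The highest SM2 value of each of these genes lay well under the lowest BW value.

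Nmd3, the export adapter of the large ribosomal subunit, was at 66.5, 45.9 and 60.1 CPM in SM2 against 147 to 336 CPM (median 230.0) in BW. Ndufv2, a core subunit of respiratory complex I, was at 296, 209 and 216 CPM against 508 to 1082 CPM (median 741) (log2 difference -1.74 ± 0.19). Sirt5, a mitochondrial desuccinylase, was at 40.1, 38.1 and 38.4 CPM against 66.5 to 113 CPM (median 91.2), the smallest difference among these genes. Ces1e, a carboxylesterase, was at 82.7, 48.3 and 90.4 CPM against 208 to 628 CPM (median 322). Abcc4, an efflux pump for bile acids and drugs, was at 10.8, 4.79 and 10.7 CPM against 18.7 to 79.7 CPM (median 35.3). C7, of the terminal complement pathway, and the lipase Abhd3 completed the group, with log2 differences of -1.75 ± 0.19 and -2.00 ± 0.25. All 20 graded genes named here kept their call when any 1 of the 16 animals was left out, and in all 20 the stocks did not overlap. These 20 were picked for the smallest p in the same 16 animals, so neither trait is separate support. Of all 1370 called genes 533 kept their call, and in 240 of the 530 graded called genes the stocks did not overlap.

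**Figure D4:**
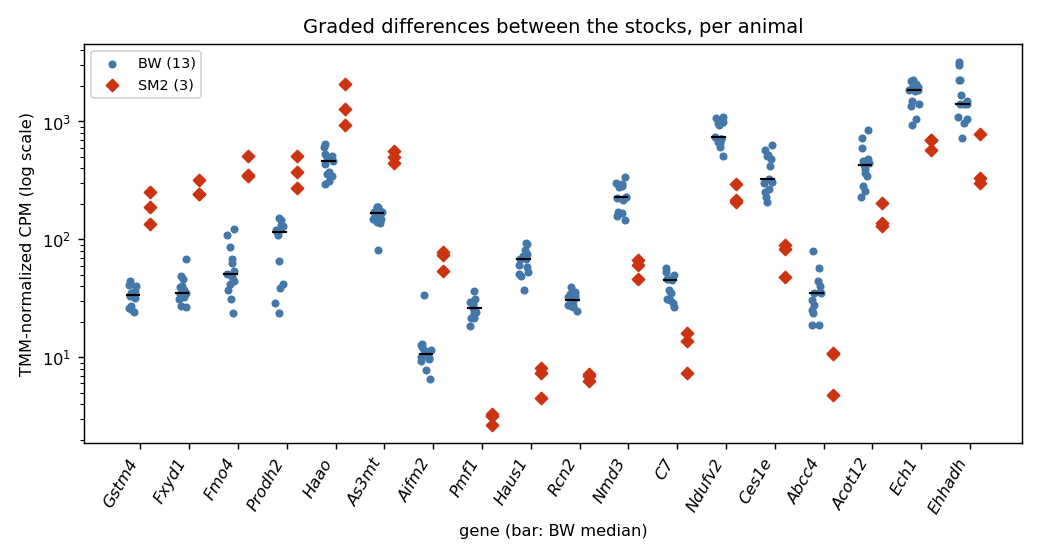
CPM (log scale) of 18 graded genes in each animal, BW in blue with a bar at the median and SM2 as red diamonds. Genes from Gstm4 to Aifm2 are higher in SM2 and those from Pmf1 to Ehhadh lower, and Ehhadh is the only one shown in which an SM2 animal (10880) lies inside the BW range.

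Among the most abundant called genes, the higher ones included the plasma proteins Apcs and Itih3 and the lower ones the fatty acid oxidation enzyme Ech1. Gulo, the last enzyme of vitamin C synthesis, was at 1509, 1759.9 and 1347 CPM in SM2 against 109 to 935 CPM (median 471) in BW, with no overlap (log2 difference 1.74 ± 0.39). Apcs, the serum amyloid P component, was at 5759, 6493 and 3662 CPM against 1263 to 3674 CPM (median 2462), so that 10880 lay just inside the BW range. Itih3, of the inter-alpha-trypsin inhibitors, was at 2561, 6323 and 1076 CPM against 128 to 2403 CPM (median 1472). Oat, the ornithine aminotransferase, spread widely at 4311, 2600.1 and 482 CPM against 162 to 3026 CPM (median 672). Each of these 3 calls was lost in 2 of the 3 fits that left out 1 SM2 animal. Apcs lay near the 2-fold limit, with a log2 difference of 1.05 ± 0.22 over all animals and of 0.99 without 10865 or without 10876. Itih3 (1.22 ± 0.45) was not called without 10865 or without 10880, and Oat (1.37 ± 0.50) without 10865 or without 10876.

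Sephs2, which makes the selenium donor for selenoproteins, was at 1689, 1100.2 and 1021 CPM in SM2 against 2183 to 5778 CPM (median 3436) in BW. Upp2, a uridine phosphorylase, was at 959, 331 and 346 CPM against 712 to 3499.8 CPM (median 2355). Pck1, the enzyme that commits carbon to gluconeogenesis, was at 3155, 582 and 591 CPM against 1549 to 4963 CPM (median 3584). Pck1 was low in both SM2 animals on HFD but not in the SM2 control, and its call was lost without 10865 or 10880.

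Some mixed genes were as large in SM2 as a near-absent gene but missed that definition in a few animals. They are given here because their values stood out. B4galnt1, the glycosyltransferase that starts the complex gangliosides, had 1131, 1329 and 1209 counts in SM2 against 1 to 14 counts in BW, or 111, 168 and 147 CPM against 0.128 to 1.25 CPM. Tmem45a had 92, 131 and 304 counts against 1 to 15 counts. All SM2 animals were high in both genes. In others the SM2 animals differed widely. Scgb1a1, the secretoglobin of airway club cells, had 27, 8 and 3934 counts against 0 to 2 counts. Fam3b, a secreted cytokine-like protein, had 1015, 289 and 1 counts against 0 to 3 counts, and Unc80, of a sodium leak channel complex, had 132, 0 and 73 counts against 0 to 1 counts. On the low side, Cblc, a ubiquitin ligase of the Cbl family, was at 2.85, 3.03 and 0.122 CPM in SM2 against 24 to 63.5 CPM in BW.

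Of 15 glutathione S-transferases tested, which attach glutathione to foreign compounds, 4 were higher and 2 lower in SM2 (40.0% against 10.8% of all genes), and the 4 higher members, Gstm3, Gstm4, Gstm5 and Gstm7, are all of the mu class and kept their call without any 1 animal. Gstm7 was at 261, 184 and 384 CPM against 20.3 to 142 CPM (median 72.7), and Gstm5 at 126, 102 and 88.1 CPM against 13.7 to 73.2 CPM (median 38.9). Gstm3 was uneven, at 20.9, 28.5 and 211 CPM against 1.69 to 50.1 CPM (median 3.66), and DESeq2 gave it no adjusted p. The lower members were Gstt3 (-2.55 ± 0.76) and Gsto2, which had 0 counts in SM2 and at most 6 in any BW animal. Mu-class genes are close paralogs, and how uniquely mapped reads divided between them is uncertain.

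Among 16 carboxylesterases and aldo-keto reductases, 1 was higher and 4 lower (31.25% against 10.8% of all genes). The lower genes were Ces1a, Ces1e, Ces1f and Ces4a, and Ces1e and Ces1f kept their call without any 1 animal. Ces1f, which hydrolyses stored triglyceride, was at 6.20, 1.26 and 6.33 CPM against 0.678 to 51.4 CPM (median 23.5). The higher gene, Ces2h, was at 40.3, 145 and 107 CPM against 26.6 to 69.4 CPM (median 41.3). The cytochromes P450 of families 1 to 4 held 4 higher and 1 lower of 28 (17.9%), and neighbouring genes went opposite ways. Cyp4x1 was at 0.787, 4.03 and 6.09 CPM against 0 to 0.998 CPM, while Cyp4b1, next to it in the RefSeq gene order, was at 22.1, 57.2 and 19 CPM against 57.1 to 409 CPM (median 172). Cyp2j6, at 664, 348 and 822 CPM against 131 to 443 CPM (median 245), Cyp2d22 and Cyp4f17 were the other higher members. Cyp2e1, a marker of hepatocytes, was not called, at 16682, 10879.6 and 22035 CPM against 13846 to 37823 CPM (median 23575). Of 3 UDP-glucuronosyltransferases tested, Ugt2a2 was higher on the strength of 10876 alone (79.1, 1.64 and 2.07 CPM against 0.188 to 23.9 CPM). None of 3 sulfotransferases was called by edgeR or DESeq2 (1 lower at an unadjusted p under 0.05), with Sult1b1 at 2.26, 0.378 and 0.122 CPM against 0.136 to 6.66 CPM.

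The genes of fatty acid oxidation, most of them targets of the nuclear receptor PPAR-alpha, were lower or not called. Of 34 tested, 0 were higher and 6 lower (17.6% against 10.8%), and 26 of the 34 lay below 0 with a median log2 difference of -0.35. Ehhadh, an enzyme of beta oxidation in peroxisomes, was at 299, 330.1 and 778 CPM in SM2 against 725 to 3185 CPM (median 1405) in BW. Acot12, an acetyl-CoA hydrolase, was at 205, 131 and 139 CPM against 227 to 841 CPM (median 430.4), and Pex11a, which divides peroxisomes, at 15.4, 18.7 and 17.2 CPM against 28.2 to 93 CPM (median 50.8). Vnn1, a pantetheinase and a known PPAR-alpha target, was the most reduced, at 6.20, 5.04 and 2.56 CPM against 12.6 to 110.4 CPM (median 40.1) (log2 difference -3.20 ± 0.68, edgeR adjusted p = 0.00474). These 4 calls were kept without any 1 animal, and that of Acot4 was not. Ech1, an enoyl-CoA isomerase outside the list, was also lower, at 693, 578 and 694 CPM against 927 to 2228 CPM (median 1861). Ppara itself had a log2 difference of -0.77 ± 0.29 (edgeR adjusted p = 0.0803).

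Genes of lipid synthesis were called at about the share of all genes. Of 44 genes of lipogenesis and triglyceride synthesis, 3 were higher and 1 lower (9.09%, beside 10.8% of all genes). Mlxipl, the carbohydrate-sensing factor ChREBP, was at 132, 795 and 726 CPM against 51.1 to 228 CPM (median 119), so the SM2 animals on HFD stood above all BW animals and the SM2 control did not. Cidea, a lipid droplet protein, showed the same arrangement at 0.492, 5.67 and 4.26 CPM against 0.0954 to 0.927 CPM. Lpin3 was called from under 1 CPM. Fabp4, a fatty acid carrier of adipocytes and macrophages, was lower at 0.689, 0.378 and 1.46 CPM against 2.35 to 45.4 CPM (median 6.19). Srebf1 (log2 difference 0.97 ± 0.43, adjusted p = 0.141) and Scd1 (-0.49 ± 0.74, adjusted p = 0.696) did not pass the edgeR test.

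Of 32 genes of cholesterol synthesis and uptake only Abcg1 was called (3.1%, beside 10.8% of all genes), lower at -1.05 on the log2 scale. Its call was lost without 10865 or 10880. Of 25 genes of bile acid synthesis and transport, 2 were called (8%), the efflux pumps Abcc4 and Abcc2, both lower. Abcc2 was at 195, 76.3 and 265 CPM against 250.4 to 772 CPM (median 388). Of 22 genes of lipoprotein metabolism, 2 were higher and 1 lower (13.6%). Apom, a carrier of sphingosine-1-phosphate, was at 294, 231 and 214 CPM against 36.4 to 170.0 CPM (median 97), without overlap. Angptl8, an inhibitor of lipoprotein lipase, was raised mainly in 10880, at 30.7, 58.6 and 500.5 CPM against 6.77 to 71.3 CPM (median 28.8). Apof was lower at 189, 343 and 579 CPM against 562 to 1294 CPM (median 928), and lost its call without 10876.

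In sugar metabolism, 3 of 35 genes were higher and 4 lower (20.0% against 10.8% of all genes). Pfkm, the muscle form of phosphofructokinase, was at 17.4, 18.7 and 22.8 CPM in SM2 against 2.27 to 16.9 CPM (median 5.78) in BW and did not overlap. Gys2, the liver glycogen synthase, was lower at 142, 90.4 and 59.6 CPM against 116 to 513 CPM (median 223). Ppp1r3g, a subunit that targets a phosphatase to glycogen, was at 21, 0.252 and 0.609 CPM against 10.2 to 256 CPM (median 92.5), with both SM2 animals on HFD under 1 CPM. Another such subunit, Ppp1r3c, was higher at 81.3, 28.2 and 52.4 CPM against 2.56 to 72.3 CPM (median 12). Hk3, a hexokinase, was higher at 42.9, 39.6 and 15.7 CPM against 4.48 to 44.2 CPM (median 7.08), and all 3 SM2 animals lay inside the BW range. Pck1, given above, and Ldhb were the other lower members.

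Of 49 genes of amino acid catabolism and the urea cycle, 3 were higher and 0 lower (6.12% against 10.8% of all genes), and all 3 kept their call without any 1 animal. They were Haao and Prodh2, given above, and Acmsd. Acmsd diverts the product of Haao away from NAD synthesis, and was at 116, 59.6 and 27.4 CPM against 6.80 to 40.6 CPM (median 17.2). The kynurenine pathway enzymes Tdo2 (log2 difference -0.84 ± 0.33), Kmo (0.40 ± 0.16) and Kynu (-0.19 ± 0.18), also on the list, were not called. Of 66 genes of the respiratory chain, 1 was higher and 3 lower (6.06%), among them Ndufv2, and the other 3 lay near or under 1 CPM in SM2. None of 37 ribosomal protein genes was called by edgeR or DESeq2 (5 higher and 1 lower at an unadjusted p under 0.05), and 27 of them lay above 0. Rpl4, the most abundant of them, had a log2 difference of 0.40 ± 0.14.

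Of 28 HIF targets and hypoxia genes, 0 were higher and 3 lower (10.7%, beside 10.8% of all genes). The 3 were Angptl4, at 21.5, 5.67 and 8.89 CPM against 2.78 to 263 CPM (median 57.3), Ankrd37 (-2.25 ± 0.61) and Ndrg1 (-1.68 ± 0.44), and none of them kept its call when 10865 was left out. Vegfa, the vascular growth factor, had a log2 difference of 0.77 ± 0.22 (edgeR adjusted p = 0.023) and fell short of the 2-fold limit. Epas1, which encodes HIF-2 alpha, had -0.67 ± 0.23 (adjusted p = 0.0546), also short of that limit. Of 18 genes of heme synthesis and red cells, 3 were higher and 0 lower (16.7%). Alad, which catalyses an early step of heme synthesis, was at 354, 441 and 425 CPM against 108 to 238 CPM (median 204), with no overlap. Tfrc, the transferrin receptor, was at 44.5, 41.2 and 36.4 CPM against 7.21 to 36.2 CPM (median 15.9), and 10880 exceeded the highest BW animal only narrowly. Epor, the erythropoietin receptor, was at 2.66, 11.1 and 20.2 CPM against 2.00 to 5.82 CPM (median 3.18), and the calls of Epor and Alad were lost without 10880. The globin genes were not analysed here.

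Of 21 genes of iron handling, 2 were higher and 3 lower (23.8% against 10.8% of all genes). Hjv (hemojuvelin), a coreceptor for the signal that induces hepcidin, was at 90.6, 143 and 155 CPM against 40.0 to 80.8 CPM (median 50.6), without overlap. The ligand of that pathway, Bmp6, was lower at 0.492, 0.252 and 0.731 CPM against 1.79 to 6.37 CPM (median 4.05), also without overlap. Its target genes Id1 (-2.19 ± 0.54) and Smad7 (-1.02 ± 0.35) were lower as well, but lost their calls when an SM2 animal was left out. Bmp6 is made chiefly by liver endothelium. Of 9 endothelial markers tested, 3 were lower and 1 higher in SM2, and only Pecam1 kept its call without any 1 animal. The part of cell composition in the Bmp6 difference was not tested.

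Of 26 antioxidant genes controlled by NRF2, 0 were higher and 3 lower (11.5%, beside 10.8% of all genes), while 5 were above and 10 below 0 at an unadjusted p under 0.05. The called genes were Abcc4, given above, Nqo1, which differed between the SM2 animals, and Srxn1 (-1.09 ± 0.36). Of 31 genes of the unfolded protein response and heat shock, none was called by edgeR or DESeq2 (4 lower at an unadjusted p under 0.05), and Hspa8, the most abundant, was at 3477, 1148 and 1221 CPM against 1088 to 3218 CPM. Of 21 clock genes, Cry1, Npas2 and Arntl were higher and 0 were lower (14.3% against 10.8%). The list as a whole had a median log2 difference of -0.29, with 13 of the 21 below 0 and 4 of these at an unadjusted p under 0.05. Cry1 was at 16.4, 48.8 and 46.8 CPM against 2.96 to 24.3 CPM (median 8.45), Npas2 at 7.28, 14.5 and 13.9 CPM against 1.21 to 13.9 CPM (median 2.74), and Arntl at 3.44, 11.7 and 12.5 CPM against 0.222 to 7.25 CPM (median 2.17). In all 3 the SM2 control lay inside the BW range, and Cry1 lost its call without 10880 and the other genes without 10865. The hour of sampling is not given in the sources used here.

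Markers of liver cell types were compared as summed CPM per animal, by exact permutation tests within diet groups over 14 values (two-sided, smallest p possible 0.00667). A sum passed at an adjusted p under 0.1. The hepatocyte sum was 52488 to 70613 CPM in SM2 and 47110 to 91563 in BW. The Kupffer cell and macrophage sum was 429, 268 and 193 CPM in SM2 against 396 to 1324 (median 509) in BW, a log2 difference of -1.03 (exact p = 0.02, adjusted p = 0.056). Of 10 markers tested, Mrc1, Vsig4 and Marco were lower, 1 (Adgre1) was higher from under 2 CPM (40% called against 10.8% of all genes), and 9 lay below 0. Only Mrc1 kept its call in every fit that left out 1 animal. The neutrophil and monocyte sum differed by -2.40 (exact p = 0.02, adjusted p = 0.056), mostly through Lcn2, at 9.25, 9.08 and 142 CPM against 47.5 to 1837 CPM (median 309), and none of its 7 markers was called by edgeR (1 higher and 1 lower at an unadjusted p under 0.05). Lcn2 is also made by hepatocytes. In bulk liver, fewer cells of a type and less RNA per cell cannot be told apart.

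The sinusoidal endothelium sum was 169 to 204 CPM in SM2 against 171 to 360 in BW, a log2 difference of -0.56 (exact p = 0.02, adjusted p = 0.056). Of 9 endothelial markers tested, 3 were lower and 1 higher (44.4% called against 10.8% of all genes). Pecam1 was lower at 23.4, 7.19 and 15.1 CPM against 30.4 to 87.5 CPM (median 51.1), without overlap. Kdr and Tek were lower, each with only 1 SM2 animal under the BW range. Lyve1 was higher at 12.9, 30.1 and 0.975 CPM against 0.664 to 6.96 CPM (median 1.88). Only Pecam1 kept its call in every fit that left out 1 animal. Of 12 stellate cell and fibroblast markers only Lum, a collagen-binding proteoglycan, was called (8.33% against 10.8% of all genes). It was lower at 0.590, 0.126 and 0.244 CPM against 2.57 to 13 CPM (median 5.58). Of the 12, 11 lay below 0, with 5 lower and 0 higher at an unadjusted p under 0.05. The stellate sum was 280 to 483 CPM in SM2 against a BW median of 437, with BW animal 36016 at 3558. Its difference did not pass (exact p = 0.267). The bile duct sum (exact p = 0.2), the T, B and NK cell sum (exact p = 0.3), the erythroid sum (exact p = 0.0733) and the skeletal muscle sum (exact p = 0.52) did not pass either. Of 7 bile duct markers, Spp1 and Krt7 were lower (28.6% against 10.8% of all genes) and 6 lay below 0. Of 12 T, B and NK cell markers, Cd8b1 was lower (8.33%) and 9 lay below 0. Spp1, Krt7 and Cd8b1 each lost their call in at least 1 fit that left out 1 animal. Besides the Kupffer cell, neutrophil and endothelium sums, those of 2 further lists passed. The adipocyte sum was 3217, 704 and 739 CPM in SM2 against 1679 to 5103 in BW (exact p = 0.00667, adjusted p = 0.0467), but Pck1, which hepatocytes express, supplied most of it and Lep was at 0 in every animal. The exocrine pancreas sum was 6.30, 7.82 and 18.9 CPM against 0.563 to 4.18 (exact p = 0.00667, adjusted p = 0.0467), from Cela1 and Ctrb1, while Cpb1 and Pnlip were at 0 in every animal. Neither Cela1 nor Ctrb1 kept its call in every fit that left out 1 animal. In male animals alone, where the smallest p possible is 0.0167, the adipocyte, exocrine pancreas and neutrophil sums reached that exact p (adjusted p = 0.0778 each), with log2 differences of -1.60, 2.15 and -2.99. The Kupffer cell and endothelium sums differed by -0.81 and -0.50 in males (exact p = 0.0667, adjusted p = 0.133 each). Among males, the only BW animal in S was 36016, which stood apart on the map.

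The interferon-response genes were lower in SM2 where called, 7 of 33 (21.2% against 10.8%) and 0 higher. The median log2 difference was -0.74, or -0.62 with a gene at 0 in SM2 set to its bound. Gbp3, a guanylate-binding protein, was at 1.77, 4.79 and 5.97 CPM against 7.91 to 25 CPM (median 20.8), and Ifit2 at 2.46, 0.630 and 2.07 CPM against 2.91 to 9.73 CPM (median 5.35). Both kept their call without any 1 animal. Gbp7, Lgals3bp, Gbp2, Usp18 and Herc6 did not, with log2 differences of -1.57, -1.24, -1.04, -1.68 and -1.75. Of the 10 Kupffer cell markers, 9 also lay below 0, and their part in this result was not tested.

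Antigen presentation was divided, with 4 higher and 2 lower of 24 (25.0%). H2-DMa, which loads peptides onto class II molecules, was lower at 5.02, 5.92 and 3.65 CPM against 6.76 to 58.3 CPM (median 21.7), as was the protease Ctss (-1.65 ± 0.53). Mr1, which presents vitamin B metabolites to T cells, was higher at 3.64, 4.79 and 4.63 CPM against 0.693 to 2.78 CPM (median 1.69). Nlrc5, the activator of class I genes, and Psmb8, of the immunoproteasome, were higher with log2 differences of 1.95 ± 0.51 and 1.06 ± 0.30. H2-M2 was called from about 1 CPM, and not by DESeq2. Most classical H2 genes were not analysed here, and genes of this family share reads.

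Of the plasma proteins, 1 of 44 coagulation and complement genes was higher and 4 lower (11.4%). F11, coagulation factor XI, was at 348, 908 and 556 CPM against 134 to 428 CPM (median 214), and all 3 SM2 animals exceeded the BW median. Tfpi, the inhibitor that holds coagulation in check, was lower at 2.76, 1.89 and 2.56 CPM against 3.89 to 9.25 CPM (median 5.96), as were Plat (-1.57 ± 0.40), F8 (-1.23 ± 0.37) and C7. Of 19 acute phase genes, Apcs, Lbp and Itih3 were higher and Steap4 lower (21.1%), and none of the 4 kept its call in every fit without 1 animal. Lbp, the binding protein for bacterial lipopolysaccharide, was at 452 and 385 CPM in 10876 and 10865 against 40.5 to 337 CPM (median 129), and 10880 lay inside that range. Of 31 serpins and other secreted proteins, 3 were higher and 0 lower (9.68%). Serpina9 was at 15.5, 8.95 and 6.70 CPM against 0.144 to 2.17 CPM (median 0.889), without overlap.

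Of 24 genes of the growth hormone and IGF axis, 1 was higher and 1 lower (8.33%, beside 10.8% of all genes). Igfbp6, which binds IGF2, was higher at 6.59, 13.5 and 9.02 CPM against 1.09 to 5.70 CPM (median 2.63). The lower member, Hgf, at 25.3, 5.67 and 6.82 CPM against 15.7 to 37.9 CPM (median 24.7), lost its call without 10865 or 10880. Of 34 cell cycle genes, 2 were higher and 4 lower at low levels (17.6%). The mitotic kinase Aurkb was at 0.787, 0.630 and 0.853 CPM against 1.09 to 4.29 CPM (median 2.44). Tpx2, which activates the related kinase at the spindle, was raised mostly in 10865, at 1.57, 29.7 and 7.55 CPM against 0.741 to 6.68 CPM (median 1.31). Tyms (3.20 ± 0.73) was higher, and Ccne2 (-2.00 ± 0.55) lower. Of 219 zinc finger transcription factors, 19 were higher and 3 lower (10.0% against 10.8% of all genes). Among them were Zfp692, at 13.6, 57.5 and 35.8 CPM against 5.66 to 16.7 CPM (median 9.87), Zfp239, at 4.63, 3.91 and 1.95 CPM against 0.185 to 1.31 CPM (median 0.939), Zfp641, higher by 4.43 ± 0.75 on the log2 scale with no BW animal above 0.222 CPM, and the lower Zfp558, at 0.689, 0.882 and 2.19 CPM against 2.58 to 7.88 CPM (median 5.49).

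Gene order was taken from RefSeq (assembly HU_Pman_BW_mat_3.1), in which 88.8% of the genes tested were found. That build is not the one the reads were aligned to, so no coordinates are given. Of 547 called lower genes found there, 71 lay next to another called lower gene, as did 1054 of all 11224 genes. Of 614 called higher genes, 76 lay next to another higher one, as did 1187 of all genes. Adjacent genes may share reads where they overlap, and the strand setting of the counting is not given in the sources used here. The longest of 6 runs of at least 3 adjacent genes in 1 direction was Spc24, Kank2, Dock6 and Angptl8, all higher, and each lowest in 10876 and highest in 10880, as with Dock6 at 29.8, 143 and 228 CPM against 18.8 to 112 CPM. Ch25h, Lipa and Ifit2 formed a lower run, in which Lipa, the lysosomal acid lipase, was at 263, 205 and 192 CPM against 339.5 to 782 CPM (median 445). Prodh2 ended a higher run with Hspb6 and Proser3. Ehhadh lay next to Vps8, which was also lower, at 29.8, 28.9 and 129.6 CPM against 35.4 to 1478 CPM (median 419). Gys2 lay next to the likewise lower Ldhb, and Nmd3 next to the lower Bche, butyrylcholinesterase, at 0.590, 0.252 and 0.487 CPM against 1.33 to 25.6 CPM (median 3.66). By chromosome, the X had the lowest share of calls, 5.87%, and the others had 7.09 to 12.6%.

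The stock difference itself differed between diet groups for 17 genes (0.135% of those tested) by the test of the interaction. This test compares single SM2 animals, each assumed to vary as BW animals do. Nqo2, a quinone reductase, was at 76.8 CPM in the SM2 control and at 4.29 and 1.34 CPM in 10865 and 10880, while BW lay at 44.4 to 72.1 CPM in C, 50.2 to 61.2 CPM in NS and 50.7 to 85.1 CPM in S (edgeR adjusted p = 2.95e-05). The SM2 control thus lay just above BW in C, and both SM2 animals on HFD lay more than 10-fold below BW. Nqo1, the related enzyme controlled by NRF2, was at 52.5, 3.66 and 143 CPM in SM2 against 129 to 261 CPM in BW (adjusted p = 0.000592), with the lowest value in 10865. Ccdc190 was at 0, 6.81 and 11.1 CPM against 8.07 to 22.6 CPM (adjusted p = 0.00473), and its 0 stood in the SM2 control.

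Among the other 14 genes of this kind, Tpmt, which methylates thiopurine drugs, was at 24.3, 78.8 and 160.2 CPM in SM2, below BW in C (range 71.9 to 99.5 CPM) and above it in S (range 58 to 81.3 CPM). Csad, which makes the taurine precursor hypotaurine, was at 48.7, 40.1 and 251 CPM, and only 10880 exceeded its diet group in BW, where S lay at 37.5 to 66.7 CPM. Adprhl1 was at 59.2, 0.630 and 0.244 CPM while no BW animal exceeded 0.371 CPM. Ugt2a3, a glucuronosyltransferase, was at 593 to 903 CPM in BW C and 29.7 to 38.1 CPM in BW S, and at 363, 102 and 82.4 CPM in SM2, below BW in C and NS and above it in S. The rest were Neu2, Itsn2, Myo9a, Npffr2, Olfml1, Scgb1a1, Slc22a14, Sorcs2, Thap12 and Usp25.

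**Figure D5:**
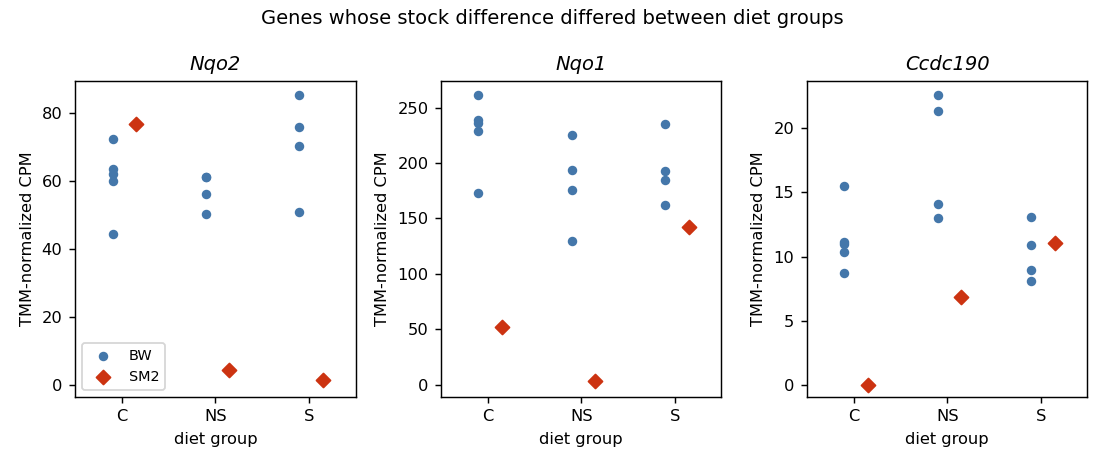
CPM of Nqo2, Nqo1 and Ccdc190 by diet group (C, NS, S), BW in blue and the single SM2 animal of each group as a red diamond. Nqo2 is near 0 in both SM2 animals on HFD and above the BW range of C in the control, Nqo1 is lowest in NS, and Ccdc190 is at 0 in C.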

How the data were processed

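RNA of 16 livers was sequenced as paired ends from directional libraries that were pooled. The values the authors deposited are raw read counts under mouse-style symbols, made by STAR 2.7.2 alignment to HU_Pman_2.1 and featureCounts on reads that mapped once, for 16910 genes with 0 lines naming no gene. The strand setting and the conversion to symbols are not given in the sources used here, so overlapping genes and paralogs are uncertain. Counts were tested with edgeR 4.0.16 (limma 3.58.1, R 4.3.3) by the quasi-likelihood test after TMM scaling, with diet group and stock as terms, over 12639 genes that reached 0.5 CPM in 1 or more animals. The labels give no replicate numbers, and animals are named by their own. Counts differed beyond sampling noise for every pair within a stock, so each animal is 1 replicate. The labels do not say whether SM2 animals were related.

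Named genes were the 10 graded genes of smallest p per direction, the 8 near-absent genes of highest level per direction, the 5 most abundant called genes per direction, up to 4 called members of each of 28 function and 11 marker lists (with none called, the most abundant member) and the 3 genes of smallest interaction p. Some genes these rules select are not reported here. Other genes were named after their values were seen. The members and lists were chosen with earlier results of these data known. Values per animal are TMM-scaled CPM unless called counts. On simulated counts of 12638 genes, 100 genes were changed at each fold. Of these, 41 changed 2-fold and 94 changed 4-fold were called, with 10 false calls among the unchanged genes. The changed genes were drawn from those averaging over 1 CPM, while 262 of the higher and 103 of the lower calls averaged under 1 CPM. Each simulated gene had 1 dispersion for all 16 animals, so these rates do not cover an SM2 animal that departs from its stock. Results were recomputed with DESeq2 1.42.0, with RLE size factors, with other filters or thresholds, without the diet group term, with sex as a covariate, in males or HFD animals alone, and leaving out each animal. RLE and males alone for the values per animal, their threshold of 0.1 (at which 5 passed, 2 of them also under 0.05) and the search for single BW animals apart were added after the data were seen. Python 3.11.15 with numpy 2.4.6, pandas 2.3.3, scipy 1.17.1 and matplotlib 3.10.9 was used for summaries and figures.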

Additional observations from a re-analysis of the deposited data

Results flagged for a closer look

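The stock difference differed between diet groups by the edgeR interaction test for 3 of the named genes. Nqo2 (adjusted p = 2.95e-05) had 76.8 CPM in the SM2 control against 4.29 and 1.34 CPM in the SM2 animals 10865 and 10880 on HFD, with BW between 44.4 and 85.1 CPM throughout. Nqo1 (adjusted p = 0.000592) had 52.5, 3.66 and 143 CPM in 10876, 10865 and 10880 against 129 to 261 CPM in BW. Ccdc190 (adjusted p = 0.00473) had 0, 6.81 and 11.1 CPM in the same order against 8.07 to 22.6 CPM. With 1 SM2 animal per diet group, diet, steatosis and the individual animal cannot be told apart in these values.

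Within the BW diet groups of 5, 4 and 4 animals, 1 animal stood apart from the others in 4 of 48 comparisons of values per animal and map positions, where chance alone gives about 1 in 20. The gap to the nearest animal, as a share of the whole range, was 0.839 for 36016 in S on dimension 2 of the map. It was 0.788 for 35975 in C in the neutrophil and monocyte sum, where this animal was high at 785 CPM. It was 0.848 for 35982 in S in the erythroid sum (1.48 CPM) and 0.964 for 35955 in S in the adipocyte sum (1679 CPM), both low. Among the named genes, 35 of 408 such groups had an animal apart. The stocks themselves, with 3 and 13 animals, were not tested in this way.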

How the results depend on the processing

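The counts of genes higher and lower in SM2 stayed within 1.5 times 747 and 623 under DESeq2 (654 and 665), RLE size factors (758 and 614), no diet group term (752 and 574), sex as a covariate (738 and 658), males alone (752 and 679), HFD animals alone (639 and 575), other filters (546 to 802 and 570 to 615) and an adjusted p under 0.05 (622 and 486). Similar totals need not hold the same genes. Of the 747 higher and 623 lower genes, 631 and 598 stayed called under DESeq2, and 746 and 614 with RLE size factors. Without the diet group term 692 and 554 did so, and 645 and 522 with sex as a covariate or in males alone. In HFD animals alone it was 497 and 391. DESeq2 gave no adjusted p for 627 genes, among them 80 of the 1370. Without the fold limit there were 1507 and 1245. Leaving out each of the 16 animals gave counts from 510 to 793 higher and from 356 to 710 lower, and the lower count moved past that range without SM2 animals 10865 (356) and 10880 (402). Without BW animal 36016 they were 788 and 666. Of the 136 named genes, 36 lost their call without 10865, 28 without 10880 and 16 without 10876, and Acta1, which was not called, changed direction without 10880 (log2 difference 0.37).

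The near-absent genes depend on their definition. With a floor of 10 counts there were 15 in SM2 and 48 in BW, with 0 counts in every animal 2 and 1, and with a median of at least 10 counts in the other stock 28 and 36. On a CPM scale there were 7 and 16. Leaving out each SM2 animal gave 5 to 8 in SM2 (8 without 10876) and 19 to 24 in BW (24 without 10880). The interaction count was 17 with RLE size factors and 14 with the stricter filter, and it rose to 184 in males alone, where S holds 1 animal per stock. Of the values per animal, 5 passed at an adjusted p under 0.1, as with RLE size factors, and 3 in males alone, a design with fewer arrangements. No paired analysis was possible because the labels give no replicate numbers that the stocks share. The limits are the 3 SM2 animals, of 1 sex and 1 per diet group, and the depth, at which genes under about 1 CPM rest on a few counts per animal.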
